A study of Homo sapiens with 8 samples.

Results

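The genes described here are 8, grouped for known roles as regulators of the stress transcription factor ATF4 or as brakes on the growth kinase complex mTORC1, together with their paralogs and a further stress-induced gene: the Tribbles pseudokinases TRIB1, TRIB2 and TRIB3, the sestrins SESN1, SESN2 and SESN3, the mTORC1 inhibitor DDIT4 and the stress protein NUPR1. They are 8 of 57884 listed genes. They were chosen by symbol, and the choice was made with their responses to serine/glycine-free medium already known from these data, so their differences between media are given as a description, without a test of any single gene. Counts from the fit over all genes stand beside the share of all genes, and nothing is read from them. Each symbol matched 1 gene in both tables, and all 8 passed the filter on low values. SESN3 passed it through the libraries of batch 1 alone, and the other 7 were at 1 FPKM or more in every library.

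RNA was sequenced from hTERT-RPE1, an established human line derived from retinal pigment epithelium and immortalised with telomerase. The 8 libraries form 4 groups of 2: wild-type cells in complete medium, wild-type cells after 8 h without serine and glycine, cells labelled ATF3(-/-) in complete medium, and cells labelled ATF3(-/-) after 8 h without serine and glycine. Each group has 1 library in each of 2 batches, which the series text describes as separate experiments on treated cells. The complete-medium libraries are labelled as taken at the start, and no library of complete medium at 8 h is listed. Medium and time thus differ together. Every difference between media given here is also one between times, and the part of time in it was not tested. The sources used here do not give the allele, whether the labelled knockout is 1 clone, or whether the complete-medium cultures had the saline wash of the starved ones. Values are FPKM, fragments counted relative to transcript length and library size, so levels can be compared between genes but the depth is unknown. The tables of the 2 batches were normalized separately, and libraries are compared within a batch. P-values rest on 2 experiments.

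Some properties of the libraries come before the results. ATF3 mRNA, the check of the knockout label, was at 3.47 and 6.46 FPKM in wild-type cells and 3.38 and 4.45 in labelled knockout cells of batch 1 (complete, then serine/glycine-free medium). In batch 2 it was at 3.65 and 18.0 in wild-type cells and 20.8 and 57.3 in labelled knockout cells, which is the reverse of the label. An mRNA level does not show whether protein was made, and "labelled knockout" is used throughout. The labelled knockout libraries of batch 2 also stand apart in lineage markers: CDH1 was at 60 and 56.2 FPKM there and at most 1.23 in the other 6, and VIM at 118 and 102. Their summed epithelial markers were 1291 and 1070 FPKM against 224 to 582 elsewhere. Their summed mesenchymal markers were 185 and 192 against 698 to 1800. Single markers did not all follow: FN1 was at 38.3 and 56.7 there and 44.5 and 58.7 in wild-type cells of batch 2. Wild-type cells also differed between the batches. In them SPARC was at 343 and 343 FPKM in batch 1 and 0.62 and 1.66 in batch 2. KRT19 was at 0.281 and 0.143, then 321 and 216, and VIM at 809 and 856, then 598 and 638. Among 10 pigment epithelium markers, 1 to 3 reached 1 FPKM in a library, OTX2 was listed at 0 in all 8, and none of 4 blood markers reached 1 FPKM. Values of batch 1 are therefore given beside those of batch 2, and the part of these library properties in any result was not tested. In bulk RNA, fewer cells of a type and less RNA per cell cannot be told apart.

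ATF4 is made when eIF2-alpha phosphorylation slows general translation, as in amino acid shortage, and it activates genes for amino acid supply together with genes that limit the response. TRIB3 is an ATF4 target whose protein binds ATF4 and restrains it, while TRIB1 and TRIB2 are best known for bringing the ubiquitin ligase COP1 to C/EBP factors. Sestrins lower mTORC1 activity through the GATOR complexes, SESN2 as a leucine sensor; SESN1 is known as a p53 target and SESN3 as a FOXO target. DDIT4, also called REDD1, restrains mTORC1 through the TSC complex, and NUPR1 is a small nuclear protein induced by many stresses.

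The bases just upstream of the starts of TRIB3, SESN2 and DDIT4 are shown because these genes had more mRNA in serine/glycine-free medium in every comparison of libraries described further on. Each line gives 250 bases ending at the base before the first RefSeq start, 5′ to 3′ on the plus strand, in build GRCh38.p14. They lie at chr20:381045-381294 for TRIB3, chr1:28259268-28259517 for SESN2 and chr10:72273674-72273923 for DDIT4. Capitals mark ATTGG, which is CCAAT on the opposite strand.
TRIB3: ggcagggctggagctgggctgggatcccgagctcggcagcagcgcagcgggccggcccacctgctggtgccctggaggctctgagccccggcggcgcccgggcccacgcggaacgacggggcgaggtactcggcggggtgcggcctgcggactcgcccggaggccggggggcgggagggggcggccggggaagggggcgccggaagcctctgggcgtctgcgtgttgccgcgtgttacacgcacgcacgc
SESN2: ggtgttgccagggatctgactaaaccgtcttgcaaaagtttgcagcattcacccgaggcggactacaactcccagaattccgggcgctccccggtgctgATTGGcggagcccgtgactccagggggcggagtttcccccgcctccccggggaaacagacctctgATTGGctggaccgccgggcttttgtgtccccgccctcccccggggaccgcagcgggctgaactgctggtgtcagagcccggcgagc
DDIT4: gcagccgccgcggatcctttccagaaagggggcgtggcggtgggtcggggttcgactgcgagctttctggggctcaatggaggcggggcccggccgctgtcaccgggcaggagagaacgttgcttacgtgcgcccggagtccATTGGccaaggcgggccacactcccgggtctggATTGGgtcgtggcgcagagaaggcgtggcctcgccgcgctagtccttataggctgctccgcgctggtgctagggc
RefSeq promoters were found for 6 of the 8 genes, with 10 starts in all, and none for TRIB1 and NUPR1. Windows of 300 bases, 250 before and 50 after the start, were searched on both strands. TGATGNAA, the core of the element bound by C/EBP-ATF dimers, was in none of the 10 windows and in 3.62% of 35116 RefSeq promoter windows. TGACGTCA, the palindrome bound by ATF and CREB factors, was in none of the 10 and in 1.85% of all windows. CCAAT, a motif added after the sequences were seen, was in 34.6% of all windows and at 2 or more places in 10.8%. SESN2 had it on the reverse strand at −151 and −86 from the start, and DDIT4 on the reverse strand at −108 and −75. SESN1 had 1 match at each of 2 of its 3 starts, at −90 and −75, and TRIB2, TRIB3 and SESN3 had none. No match overlapped another, and a match is only a run of letters in this window.

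The first comparison asks how the 8 mRNAs stood after 8 h without serine and glycine. TRIB3, SESN2, DDIT4 and NUPR1 were higher in serine/glycine-free medium in 4 of 4 matched pairs of libraries, and TRIB2 was lower in 4 of 4. TRIB1 was higher in 3 of 4 pairs, and SESN1 and SESN3 each in 2 of 4. Within the Tribbles and within the sestrins, a single paralog had more mRNA in serine/glycine-free medium in every pair. The share of all genes with a single sign in every pair was not counted, so these counts are a description only.

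TRIB3, which binds ATF4, stood in wild-type cells at 7.66 FPKM in complete and 83.0 in serine/glycine-free medium in batch 1, and at 24.7 and 246 in batch 2. Labelled knockout cells had it at 11.8 and 93.1 in batch 1, and at 84.7 and 295 in batch 2. The order of the 4 groups was the same in both batches: wild type complete, labelled knockout complete, wild type serine/glycine-free, labelled knockout serine/glycine-free. The FPKM ratio between media was 10.8 and 9.96 in wild-type cells and 7.86 and 3.48 in labelled knockout cells. On the log2(FPKM + 1) scale, which understates the change of low genes, the fitted differences were 3.27 ± 0.32 and 2.33 ± 0.32 (limma, SE). TRIB3 is listed on chromosome 20 at 361261-378203 (hg19, ENSG00000101255), as a whole gene locus with exons and introns.

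TRIB2 was lower in serine/glycine-free medium, by a smaller amount. It was at 18.9 and 12.3 FPKM in wild-type cells of batch 1 (complete, then serine/glycine-free medium) and at 15.9 and 9.57 in labelled knockout cells. In batch 2 it was at 9.01 and 6.99 in wild-type cells and at 13.9 and 7.72 in labelled knockout cells. The fitted differences were −0.45 ± 0.26 in wild-type and −0.72 ± 0.26 in labelled knockout cells, a single direction in all pairs. TRIB1 was at 5.74 and 7.27 FPKM in wild-type and 4.02 and 8.93 in labelled knockout cells of batch 1, and at 30.3 and 33.7, and 26.7 and 26.5, in batch 2. Its ratio between media was thus 2.22 in labelled knockout cells of batch 1 and between 0.994 and 1.27 in the other 3 pairs, with fitted differences of 0.22 ± 0.27 and 0.49 ± 0.27.

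As a share of the summed Tribbles FPKM, TRIB3 went in wild-type cells from 23.7% in complete to 80.9% in serine/glycine-free medium in batch 1, and from 38.6% to 85.8% in batch 2. Under the knockout label its share went from 37.2% to 83.4% and from 67.6% to 89.6%. TRIB3 was the highest Tribbles mRNA in 5 of 8 libraries, including all 4 of serine/glycine-free medium. In complete medium TRIB2 led in both genotypes of batch 1 and TRIB1 in wild-type cells of batch 2. The Tribbles sum was 32.3 and 103 FPKM in wild-type and 31.8 and 112 in labelled knockout cells of batch 1 (complete, then serine/glycine-free medium), and 64.0 and 287, and 125 and 329, in batch 2. The makeup of the family by library is drawn in the plot of family shares.

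**Figure D1:**
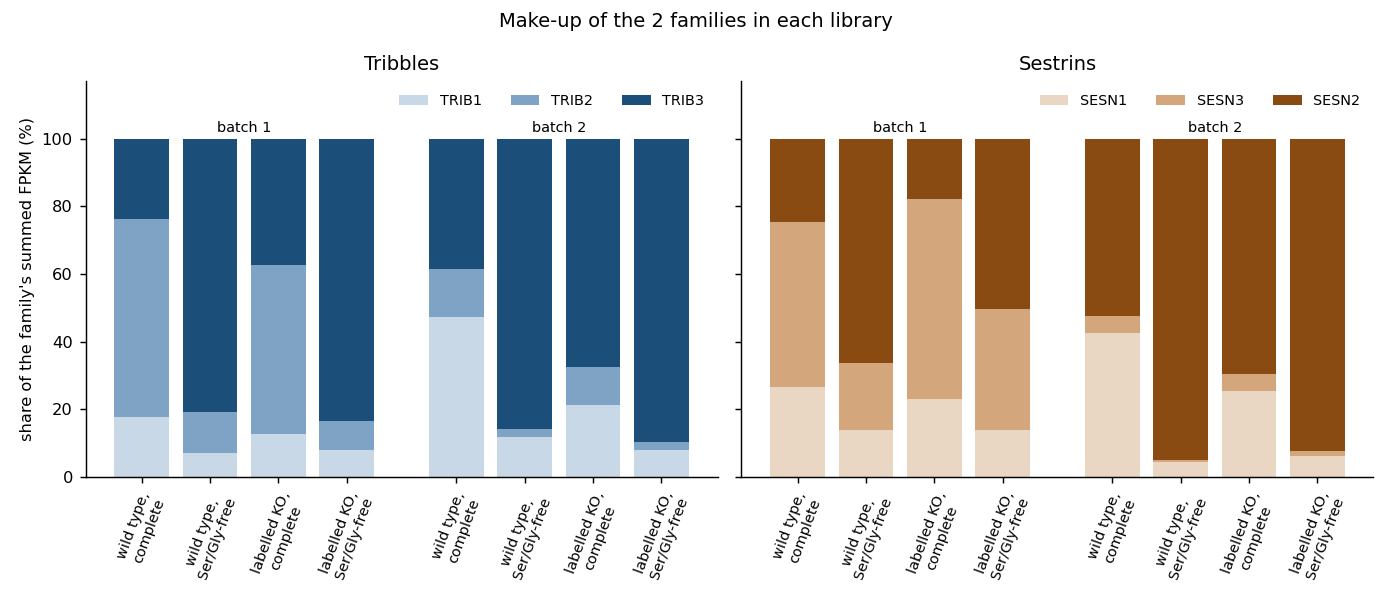
Share (percent) of the summed FPKM of the 3 Tribbles (left) and the 3 sestrins (right) held by each paralog, 1 bar per library, by group and batch. In serine/glycine-free medium TRIB3 holds 80.9% to 89.6% of the Tribbles sum, and SESN2 is the highest sestrin in all 4 libraries.

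Among the sestrins, SESN2, a leucine sensor, was at 5.57 and 29.1 FPKM in wild-type cells of batch 1 (complete, then serine/glycine-free medium). In wild-type cells of batch 2 it was at 1.82 and 30.4. Labelled knockout cells had it at 2.91 and 12.8, and at 3.27 and 20.7. All 4 serine/glycine-free values lay above all 4 complete-medium values, with FPKM ratios of 5.22 and 16.8 in wild-type cells and 4.41 and 6.35 in labelled knockout cells. The fitted differences were 2.84 ± 0.44 and 2.09 ± 0.44. The gene lies on chromosome 1 at 28586038-28609002 (hg19).

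SESN1, known as a p53 target, was at 5.93 and 6.08 FPKM in wild-type and 3.72 and 3.52 in labelled knockout cells of batch 1. In batch 2 it was at 1.47 and 1.40, and 1.19 and 1.39. SESN3, known as a FOXO target, was at 11.0 and 8.75, and 9.52 and 9.18, in batch 1. In batch 2 SESN3 was at 0.183 and 0.218, and 0.242 and 0.358. Neither had a common direction, and their fitted differences between media ran from −0.13 to 0.041 with SEs of 0.28 for SESN1 and 0.25 for SESN3. SESN1 (chromosome 6, 109307640-109416022) and SESN3 (chromosome 11, 94883703-94967268) overlap other listed RNA genes, 2 for SESN1 and 1 for SESN3, all at or below 2.01 FPKM. The gene at SESN3 is the antisense RP11-712B9.2. In batch 2 it was at 0.440 and 0.803 FPKM in wild-type and 1.41 and 0.922 in labelled knockout cells. It was thus above SESN3 in every library of that batch. Strand-specific counting is not given, so reads from the overlap cannot be told apart.

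The share of SESN2 in the sestrin sum went in batch 1 from 24.8% to 66.2% in wild-type and from 18.0% to 50.2% in labelled knockout cells. In batch 2 it went from 52.3% to 95.0% and from 69.6% to 92.2%. SESN3 held 48.8% and 59.0% of the sum in the complete-medium libraries of batch 1, where it was the leading sestrin, and SESN2 led in the other 6 libraries. The summed sestrin level was 22.5 and 43.9 FPKM in wild-type and 16.1 and 25.5 in labelled knockout cells of batch 1, and 3.47 and 32.0, and 4.70 and 22.5, in batch 2.

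DDIT4, which acts on mTORC1 through the TSC complex, was at 48.1 and 107 FPKM in wild-type cells of batch 1 and at 21.6 and 82.6 in batch 2 (complete, then serine/glycine-free medium). Labelled knockout cells had DDIT4 at 11.8 and 67.8 in batch 1 and at 42.5 and 60.1 in batch 2. Every serine/glycine-free value lay above every complete-medium value, but the ratio between media varied from 1.41 to 5.75, and both extremes were in labelled knockout cells. The fitted differences were 1.51 ± 0.63 and 1.46 ± 0.63, with the largest SE of the 8 genes. Leaving out the complete-medium library of batch 1 or of batch 2 gave 2.28 and 0.75 in wild-type cells, and 0.30 and 2.62 in labelled knockout cells. DDIT4 lies on chromosome 10 at 74033678-74035794 (hg19), where the tables also list the antisense RNA gene RP11-442H21.2. That gene was at 0.777 to 0.980 times the FPKM of DDIT4 in every library, and since strand-specific counting is not given, their reads cannot be told apart.

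NUPR1 was at 25.0 and 64.9 FPKM in wild-type and 27.1 and 48.6 in labelled knockout cells of batch 1, and at 6.06 and 36.3, and 12.1 and 28.3, in batch 2. The groups kept 1 order in both batches, with wild type lowest in complete and highest in serine/glycine-free medium. The ratio between media was 2.59 and 6.0 in wild-type cells and 1.80 and 2.35 in labelled knockout cells, and the fitted differences were 1.87 ± 0.30 and 0.99 ± 0.30. The gene lies on chromosome 16 at 28548606-28550495 (hg19). The levels of the 8 genes in each library are drawn in the plot of FPKM by gene.

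**Figure D2:**
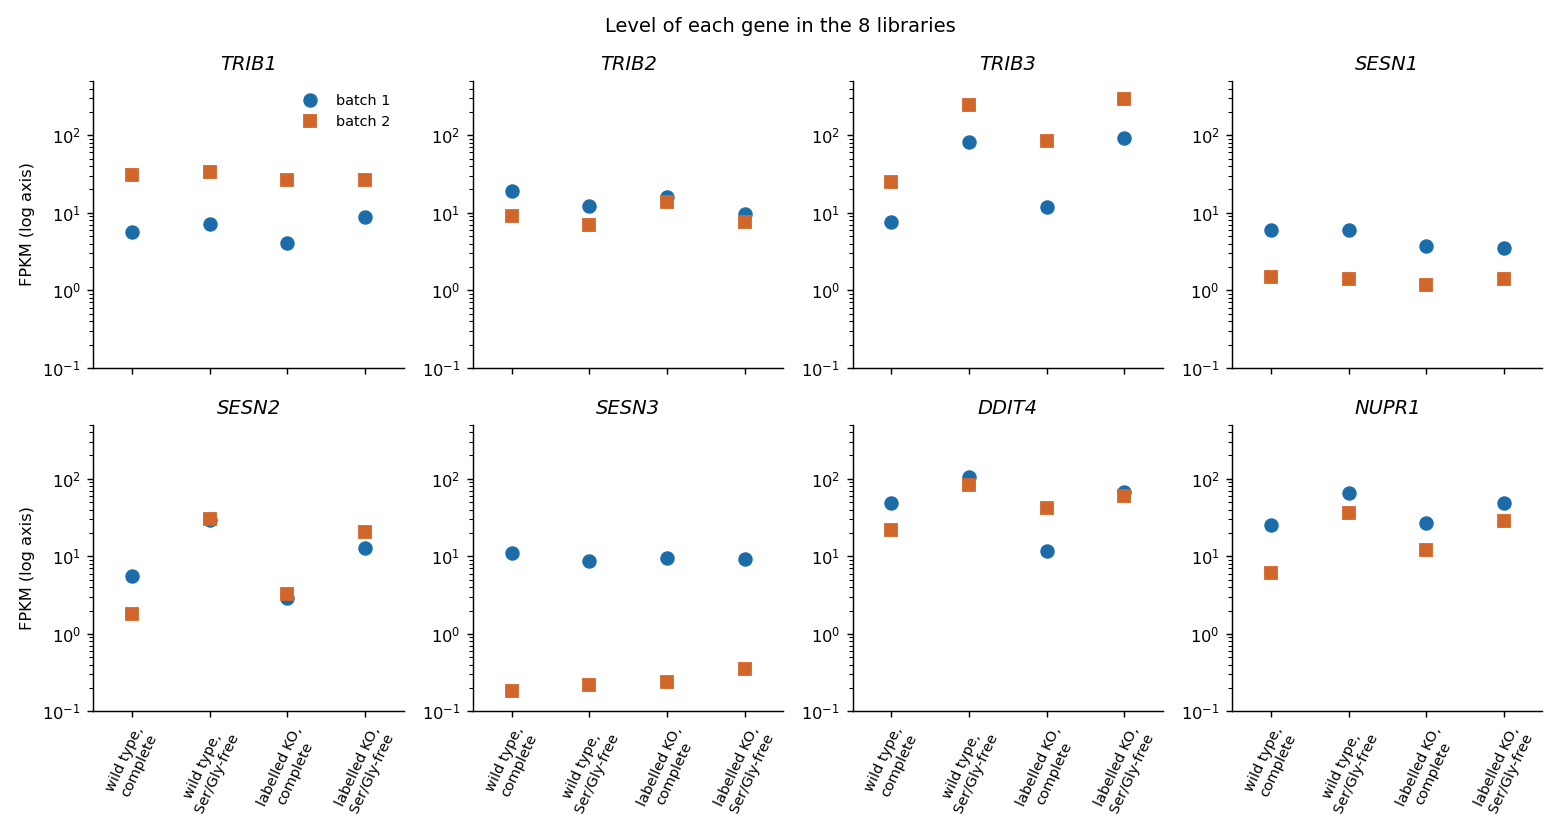
FPKM of each of the 8 genes (log axis) in wild-type and labelled knockout cells in complete and serine/glycine-free medium, 1 point per library. TRIB3, SESN2, DDIT4 and NUPR1 are higher in serine/glycine-free medium in 4 of 4 pairs, and SESN3 is below 1 FPKM in all libraries of batch 2.

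**Figure D3:**
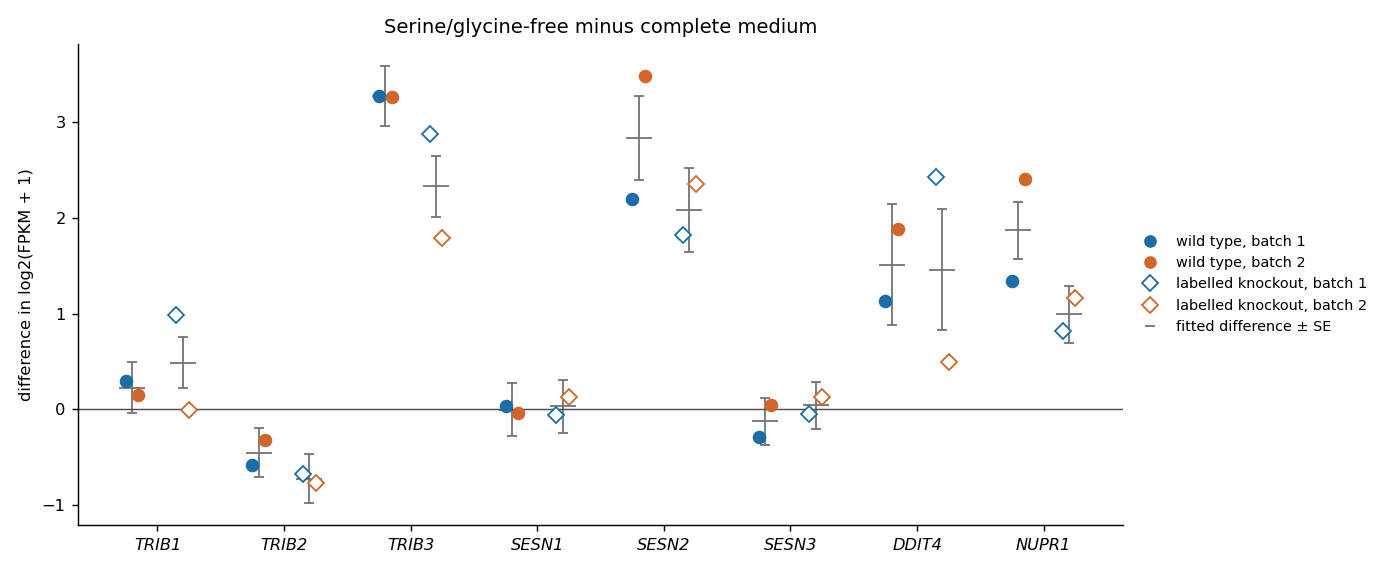
Difference between serine/glycine-free and complete medium in log2(FPKM + 1), by gene and genotype label, with points for the 2 batches and grey bars for the fitted difference ± SE. TRIB3 has the highest fitted differences, 3.27 and 2.33, and TRIB2 has differences below 0 in both genotypes.

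Set against all 17994 genes tested, limma with Benjamini-Hochberg adjustment called 0 of the 8 genes between media in wild-type cells, where it called 0.0556% of all genes (10 genes, 1014 at an unadjusted p under 0.05). It called 0 of the 8 in labelled knockout cells, where it called 0.0167% (3 genes, 1006 at an unadjusted p under 0.05). At an unadjusted p under 0.05 there were 3 of the 8 in wild-type and 4 of the 8 in labelled knockout cells. By size alone, a difference of at least 1 on the log2 scale with 1 sign in both batches, 4 of the 8 were higher in wild-type cells (TRIB3, SESN2, DDIT4 and NUPR1), where 0.772% of all genes were, and none was lower, where 0.289% were. In labelled knockout cells 2 of the 8 were higher (TRIB3 and SESN2), where 0.511% of all genes were, and none was lower, where 0.361% were. The median difference over the 8 was 0.87 in wild-type and 0.74 in labelled knockout cells, against 0.02 and 0.01 over all genes tested. The genes were chosen with this contrast known.

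The next comparison asks whether levels differed with the knockout label. In complete medium limma called 0 of the 8 (0.0333% of all genes were called, 6 genes, with 860 at an unadjusted p under 0.05). TRIB3 was the only one of the 8 with an unadjusted p under 0.05. It was higher in labelled knockout cells by 0.57 in batch 1 and 1.74 in batch 2 on the log2 scale, FPKM ratios of 1.55 and 3.43. The fitted difference was 1.15 ± 0.32 (95% interval 0.38 to 1.93; limma, adjusted p = 0.857), so it did not pass the adjustment over all genes. It was 1.73 without the complete-medium labelled knockout library of batch 1 and 0.58 without that of batch 2.

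DDIT4 in complete medium differed in opposite directions in the batches: it was 4.08-fold lower in labelled knockout cells in batch 1 and 1.97-fold higher in batch 2, with a fitted difference of −0.50 ± 0.63 (limma, adjusted p = 0.897). SESN2 also had opposite signs, at −0.75 and 0.60 on the log2 scale, with a fitted difference of −0.08 ± 0.44 (limma, adjusted p = 0.988). NUPR1 was nearly level in batch 1 and higher in labelled knockout cells in batch 2, at 0.11 and 0.89 (fitted 0.50 ± 0.30; limma, adjusted p = 0.857). In batch 2, whose labelled knockout cells had the higher CDH1 and ATF3 mRNA, TRIB3, SESN2, DDIT4 and NUPR1 were all higher under the knockout label in complete medium. In batch 1 DDIT4 and SESN2 were lower, and the median over the 8 was −0.33 in batch 1 and 0.58 in batch 2. The other 4 genes had fitted differences from −0.37 for SESN1 to 0.17 for TRIB2.

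In serine/glycine-free medium limma called 0 of the 8 (0.05% of all genes were called, 9 genes, with 1055 at an unadjusted p under 0.05), and none of the 8 had an unadjusted p under 0.05. SESN2 was lower under the knockout label in both batches, at −1.12 and −0.53 on the log2 scale, with a fitted difference of −0.83 ± 0.44 (95% interval −1.90 to 0.25; limma, adjusted p = 0.801). DDIT4 was also lower, at −0.65 and −0.45 (fitted −0.55 ± 0.63; limma, adjusted p = 0.857) and so was NUPR1, at −0.41 and −0.35 (fitted −0.38 ± 0.30; limma, adjusted p = 0.815). TRIB3 was slightly higher in both batches, at 0.16 and 0.26 (fitted 0.21 ± 0.32; limma, adjusted p = 0.900). The intervals include 0 for all 8 genes in this medium and are wide enough to hold differences of more than 1 log2 for SESN2, DDIT4, NUPR1 and SESN1.

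By the size rule, 0 of the 8 genes differed with the label in complete medium, where 0.845% of all genes did, and 0 of the 8 in serine/glycine-free medium, where 0.911% did. The median over the 8 was −0.07 in complete medium, where that of all genes was −0.02, and −0.21 without serine and glycine, where it was −0.04. The comparisons by medium and by label share their libraries, so they are not separate pieces of evidence.

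**Figure D4:**
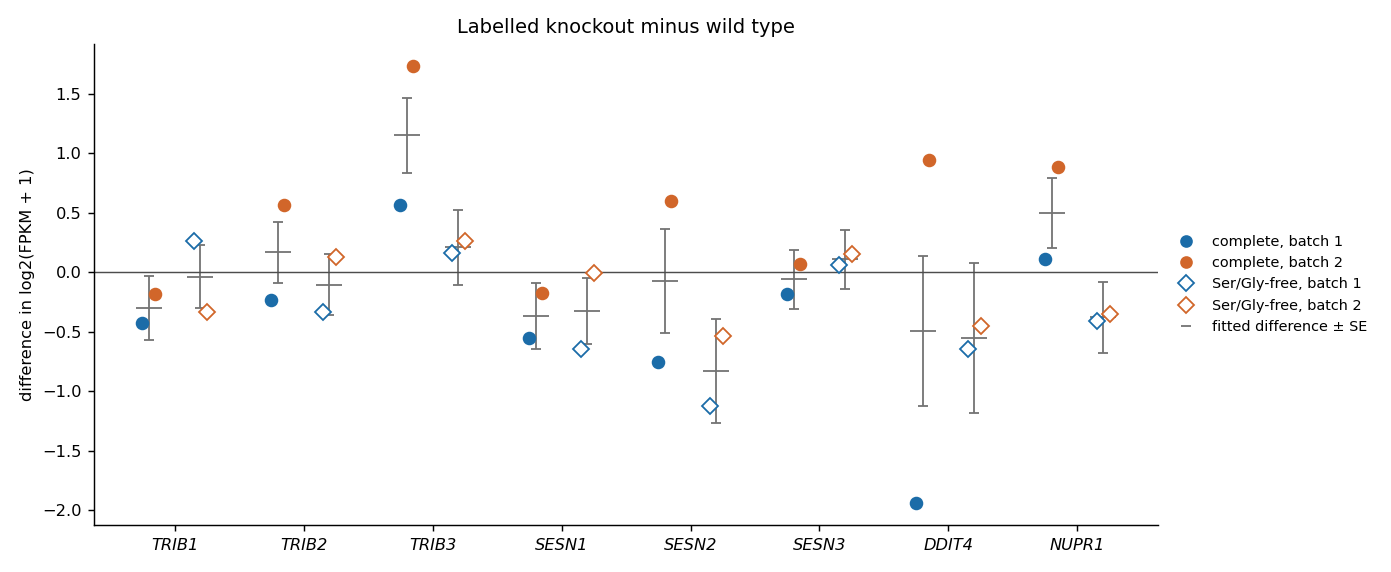
Labelled knockout minus wild type in log2(FPKM + 1), by gene and medium, with points for the 2 batches and grey bars for the fitted difference ± SE. In complete medium DDIT4 and SESN2 lie on opposite sides of 0 in the batches, and in serine/glycine-free medium SESN2, DDIT4 and NUPR1 lie below 0 in both.

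Whether the medium difference itself depended on the label was fitted as an interaction. The term is the difference of medium responses known when the genes were chosen, so it is a description and no separate evidence. Limma called 0 of the 8 (0.0611% of all genes were called, 11 genes, with 276 at an unadjusted p under 0.05), and none of the 8 had an unadjusted p under 0.05. The medium difference of TRIB3 was lower in labelled knockout cells in both batches, at −0.41 and −1.48 on the log2 scale relative to wild type, with a fitted term of −0.94 ± 0.45 (limma, adjusted p = 1.00). For NUPR1 the values were −0.52 and −1.24 (fitted −0.88 ± 0.42; limma, adjusted p = 1.00), and for SESN2 −0.37 and −1.13 (fitted −0.75 ± 0.62; limma, adjusted p = 1.00). For DDIT4 the batches went opposite ways, at 1.29 and −1.40, around a fitted term of −0.05 ± 0.89 (limma, adjusted p = 1.00). The larger values of TRIB3, NUPR1 and SESN2 were those of batch 2.

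Paralogs also differed between the batches in all 4 groups, although levels set across the separately normalized tables are a description. SESN3 lay between 8.75 and 11.0 FPKM in batch 1 but between 0.183 and 0.358 in batch 2, a 38.4-fold difference in means. Its batch 2 levels were below those of the antisense gene at its locus, which limits that fold. SESN1 lay between 3.52 and 6.08, and between 1.19 and 1.47, and its mean was 3.54-fold higher in batch 1. TRIB1 went the other way, with 4.02 to 8.93 FPKM in batch 1 against 26.5 to 33.7 in batch 2, a 4.52-fold higher mean. The ranges of these 3 did not overlap, while those of TRIB2, TRIB3, SESN2, DDIT4 and NUPR1 did. The share of all genes with separate ranges was not counted, so the split is a description only. Over all genes, libraries correlated at 0.920 to 0.957 within a batch and 0.768 to 0.815 between batches, so SESN3 and TRIB1 stand among wider differences between the experiments. In hg19 TRIB1 is listed on chromosome 8 at 126442563-126450647 and TRIB2 on chromosome 2 at 12857015-12882860.

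The surroundings of these genes in their pathways were described with 6 lists of 139 genes, of which 135 could be tested. The lists were chosen with earlier results of these data known. Their counts and p-values between media are therefore a description and no separate evidence. In the ATF4 arm of the stress response, 1 of 22 genes passed limma's test between media in wild-type cells, where 0.0556% of all genes did, and it was higher. This was SLC7A11, the cystine importer, at 8.20 and 42.5 FPKM in batch 1 and 3.59 and 26.1 in batch 2 (2.4 ± 0.21; limma, adjusted p = 0.0462). The call was lost under 8 of the 10 other settings tried and on omitting any 1 of the 8 libraries, then at limma adjusted p-values from 0.0936 to 0.505, while its difference stayed between 2.27 and 2.54. By the size rule 7 of the 22 were higher, where 0.772% of all genes were, and 0 lower, where 0.289% were, and the median was 1.00. They included CHAC1, which degrades glutathione, at 3.22 ± 0.46, the asparagine synthetase ASNS at 2.47 ± 0.42, and DDIT3, which encodes CHOP, at 2.33 ± 0.47. In labelled knockout cells 6 of the 22 were higher by the size rule, where 0.511% of all genes were, and 0 lower, where 0.361% were, with a median of 0.52. None of the 22 passed limma's test there, where 0.0167% of all genes did, and 9 had an unadjusted p under 0.05, as 1006 of 17994 genes did.

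ATF4 mRNA itself was at 171 and 300 FPKM in wild-type and 159 and 288 in labelled knockout cells of batch 1, and at 56.1 and 171, and 95.6 and 179, in batch 2. It was thus higher in serine/glycine-free medium in the 4 pairs in which TRIB3, SESN2, DDIT4 and NUPR1 were.

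The other 5 lists had medians from −0.08 to 0.25 in wild-type cells, where that of all genes was 0.02. In each, 1 gene was higher by the size rule (0.772% of all genes were) and none was lower (0.289% were). None of their genes passed limma's test (0.0556% of all genes did). In the order given next, 1, 2, 4, 0 and 2 genes had an unadjusted p under 0.05, as 1014 of 17994 genes did. Among 15 Tribbles partners the median was −0.08, and the gene was the C/EBP factor CEBPB (1.64 ± 0.22), which the ATF4 list also holds. Among 42 genes of mTORC1 and its amino acid and TSC inputs the median was −0.03, and the gene was EIF4EBP1, a translation repressor that mTORC1 phosphorylates (1.05 ± 0.21). Among 24 p53 targets, a route known for SESN1, the median was 0.25, and the gene was the stress cytokine GDF15 (2.04 ± 0.61). Among 17 FOXO targets, a route known for SESN3, the median was 0.17, and the gene was TXNIP, an inhibitor of thioredoxin (1.37 ± 0.67). Among 17 hypoxia and glucocorticoid targets, other routes known for DDIT4, the median was 0.02, and the gene was TSC22D3, which encodes GILZ (1.48 ± 0.22). In labelled knockout cells no gene of these 5 lists was past the size rule, where 0.511% of all genes were higher and 0.361% lower.

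**Figure D5:**
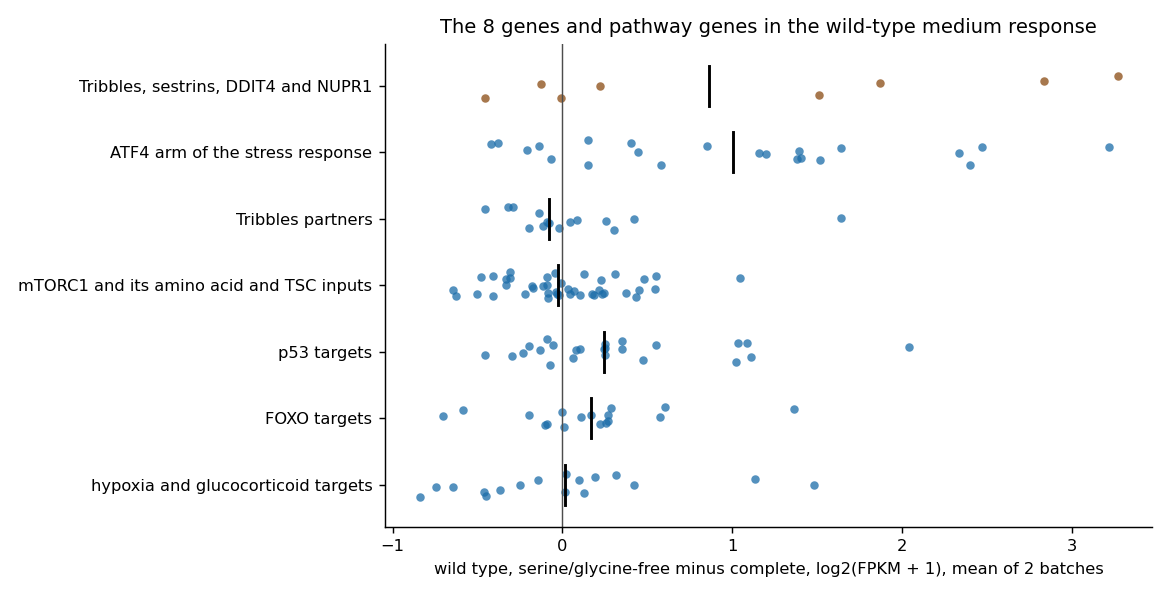
Mean over the batches of the difference between serine/glycine-free and complete medium in wild-type cells, in log2(FPKM + 1), for the genes of 6 pathway lists and the 8 genes described here, 1 point per gene, with bars at the medians. The ATF4 arm has a median of 1.00, and the medians of the other 5 lists run from −0.08 to 0.25.

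Finally, the genes whose levels ran most alike were listed by Pearson r over the 8 libraries with each batch mean taken off, among 10096 genes with a mean of 5 FPKM or more. These 8 points share libraries and the medium difference. The genes named are the highest of 10096 candidates, so a high r comes with the choice. TRIB3 ran closest to VPS36 (0.989) and the amino acid transporters SLC1A5 (0.989) and SLC38A1 (0.989). SESN2 ran closest to the asparaginyl-tRNA synthetase NARS (0.997), the transporter SLC1A4 (0.994) and CHAC1 (0.992), and NUPR1 to the mitochondrial folate enzyme MTHFD2 (0.987), CMSS1 (0.986) and TUBE1 (0.985). DDIT4 ran closest to its antisense neighbour RP11-442H21.2 (0.993), then AP003900.6 (0.991) and AC093734.1 (0.978).

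The other 4 genes had other neighbours. TRIB1 ran closest to NAV3 (0.990), LRP8 (0.976) and SLC25A37 (0.974), and TRIB2 to ZCCHC24 (0.989), SORT1 (0.977) and PREB (0.971). SESN1 ran closest to ARPC2 (0.991), ENOSF1 (0.989) and IGFBP7 (0.988), and SESN3 to SEC23B (0.973), RAB26 (0.967) and GIPC1 (0.953). Among the 28 pairs of the 8 genes the highest r was that of SESN2 with NUPR1 (0.965), followed by TRIB3 with NUPR1 (0.923) and TRIB3 with SESN2 (0.881). DDIT4 ran less close to TRIB3 (0.767) and NUPR1 (0.769) than to SESN2 (0.856), and TRIB2 ran opposite to TRIB3 (−0.711).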

How the data were processed

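RNA of 8 hTERT-RPE1 libraries (4 groups of 2) was analysed. The values are FPKM as the authors deposited them, with 57884 genes in 1 table for each of the 2 batches. The submitters' processing notes name TopHat, Cufflinks, Cuffdiff and hg19. The sources used here do not give their versions and settings, or the depth. Levels rest on FPKM's division by length and library size, and reads of overlapping genes may have been split. Loci are hg19, 1-based; promoter sequences are RefSeq's, GRCh38.p14.

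A filter of at least 1 FPKM in 2 or more libraries kept 17994 genes. Limma 3.58.1 in R 4.3.3 fitted log2(FPKM + 1) with 4 group means, the batch as a block and a trended prior (3 residual and 2.97 prior degrees of freedom), and two-sided p-values took the Benjamini-Hochberg adjustment across the whole table (threshold 0.05). The series text states that equal replicate numbers mark a shared batch, which pairs the libraries. Deviations of same-numbered libraries from group means correlated at 0.650 to 0.775 in 12 pairs. The procedure was tested on simulated data. The genes and lists were chosen with earlier results of these data known. The genes named are all 8, up to 4 per list with a difference of 1 log2 in both batches and the largest mean size, and the 3 genes most alike by r. Alternatives were other pseudocounts (0.1, 0.5), filters, scaling, blocks and gene sets, and libraries left out. Protein sequences were not used here.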

Additional observations from a re-analysis of the deposited data

Results flagged for a closer look

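Several genes moved in opposite directions in the 2 batches, in both conditions of each batch. None of these differences between batches was tested. All values are differences in log2(FPKM + 1). TRIB2 differed with the knockout label by −0.24 (complete medium) and −0.33 (serine/glycine-free medium) in batch 1 and by 0.57 and 0.13 in batch 2, a mean gap of 0.63. SESN3 differed with medium by −0.29 (wild type) and −0.05 (labelled knockout) in batch 1 and by 0.04 and 0.13 in batch 2, a gap of 0.26, and its batch 2 levels were all below 1 FPKM. ATF3 differed with the label by −0.03 and −0.45 in batch 1 and by 2.23 and 1.62 in batch 2, a gap of 2.16. Of the pathway genes named, the same pattern with the label had gaps of 0.97 for ASNS, 2.19 for TXNIP, 1.32 for DDIT3 and −0.48 for EIF4EBP1. The labelled knockout libraries of batch 2 are those with CDH1 at 60 and 56.2 FPKM, and the part of this in the gaps was not tested.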

How the results depend on the processing

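Over the alternatives, the 8 genes kept the direction of the medium difference in 141 of 144 values in wild-type and 139 of 144 in labelled knockout cells, of the label difference in 127 of 136 (complete) and 128 of 136 (serine/glycine-free), and of the interaction in 122 of 136. Other filters, blocks and gene sets changed the p-values and left the estimates as they were. TRIB1 between media in wild-type cells stayed at 0.22285 with no filter on low values, without the replicate block and among protein-coding genes. The counts include such repeated values, so they overstate how widely the directions were tried.

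Among protein-coding genes alone, limma called TRIB3 between media in wild-type cells, which the main fit did not. That contrast was known when the gene was chosen, so nothing is read from the call. The number of genes limma called moved as follows. Between media in wild-type cells (10), it was 6 with no filter, 1 with only the groups compared, 6 among protein-coding genes and 1 without both batch 2 libraries labelled knockout. In labelled knockout cells (3), it was 5 with a block per label and batch, 1 among protein-coding genes and 0 without those 2 libraries. By label in complete medium (6), it was 1 with no filter, 0 with only the groups compared, 0 among protein-coding genes and 2 without those libraries; in serine/glycine-free medium (9) it was 3, 0 and 0 under the last 3 of these. For the interaction (11), it was 3 with a pseudocount of 0.1, 3 with no filter, 7 with a mean filter, 7 with a block per label, 0 among protein-coding genes and 1 without those libraries. Without the replicate block the counts were 9 and 3 for the medium, 5 and 9 for the label and 3 for the interaction, where the batch pairing was dropped. Leaving out each library gave 8 to 19, 3 to 13, 2 to 14, 2 to 14 and 3 to 9 calls, in the same order.

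With 1 library left out at a time, the median label difference over the 8 ran from −0.33 to 0.58 in complete medium, above 0 without either complete-medium library of batch 1, and from −0.37 to −0.17 in serine/glycine-free medium, and the median medium difference in labelled knockout cells ran from 0.31 to 0.90. The median label difference in serine/glycine-free medium was −0.37 without both batch 2 labelled knockout libraries and −0.16 with median-ratio scaling. Without both batch 2 labelled knockout libraries, signs turned for SESN1 (−0.061) and SESN3 (−0.047) between media in labelled knockout cells, for TRIB2 by label in complete medium (−0.17), for TRIB1 (0.30) and SESN3 (−0.022) by label in serine/glycine-free medium, and for the interactions of SESN1 (−0.055) and DDIT4 (0.92). SESN3 by label in complete medium turned to 0.036 with a pseudocount of 0.1, and TRIB1 in serine/glycine-free medium to 0.032 with median-ratio scaling.

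With 1 library left out at a time, signs also turned within these ranges. Between media they were −0.20 to 0.19 (SESN1) and −0.30 to 0.044 (SESN3) in wild-type cells, and −0.20 to 0.27 (SESN1) and −0.076 to 0.16 (SESN3) in labelled knockout cells. By label in complete medium they were −1.66 to 0.66 (DDIT4), −0.83 to 0.68 (SESN2), −0.23 to 0.11 (SESN3) and −0.13 to 0.46 (TRIB2). By label in serine/glycine-free medium they were −0.0069 to 0.23 (SESN3), −0.43 to 0.35 (TRIB1), −0.28 to 0.078 (TRIB2) and −0.0037 to 0.43 (TRIB3). For the interaction they were −1.21 to 1.11 (DDIT4), −0.19 to 0.27 (SESN1), −0.0030 to 0.34 (SESN3), −0.12 to 0.65 (TRIB1) and −0.57 to 0.027 (TRIB2). In these fits a lone library is assumed to vary like the other groups. The cause of these moves was not tested. A block per label cannot be fitted for the label comparisons, a fit of only the groups compared does not exist for the interaction, and the size rule needs both batches. Depth is unknown, which limits what can be said of SESN3 in batch 2.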
